A study of Mus musculus with 4 samples.

Results

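The 10 genes described here encode transcription factors that set up endoderm, mesoderm and trophoblast in the early mouse embryo. They are the endoderm regulators Gata4, Gata6, Sox17, Sox7 and Foxa2, the mesoderm regulators T, Eomes, Mixl1 and Gsc, and the trophoblast regulator Cdx2. They were chosen by gene name as lineage regulators that are silent or low in embryonic stem cells, and all 10 were found among 22359 protein-coding genes annotated by GENCODE (version M1) on mm9, the genome of the tags. Expression was not measured in the libraries used here, so the silence of the genes was not checked.

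The study asked where acetylation of histone H3 at lysines 9 and 14 (H3K9ac and H3K14ac) lies in the genome of mouse embryonic stem (mES) cells. Its 4 libraries are chromatin immunoprecipitated with the rabbit polyclonal antibody AB4441 against H3K9ac, with antibody 13HH3 against H3K14ac or with antibody 7G8 against H3K14ac, and input DNA as the control. All came from untreated mES cells that the labels give as line E14, strain 129P2/OlaHsd, at passage 25 to 30, whereas the methods describe wild type cells derived from blastocysts. Each antibody has 1 library, so the intervals below are exact 95% intervals that cover counting error only, and no p-value is given.

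Acetylation of histone tails is added by acetyltransferases and removed by deacetylases, and it is a usual feature of promoters that are open or in use. In stem cells many lineage regulators have CpG-rich promoters that carry active and repressive histone marks together, which is known as the bivalent state. The 10 factors act in the extraembryonic and embryonic endoderm, in the primitive streak and in the trophoblast.

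A tag is the position of 1 mapped read, and normalised tags are tags per 10000000 tags of the library, counted within 2 kb of the transcription start site (TSS) unless bins are named. The libraries held 19313927 to 23839094 distinct tags, so 1 library's count at a gene ranged from 36 to 243 tags. As a check of the label, 8 of 8 stem cell markers (Pou5f1, Nanog, Sox2, Klf4, Esrrb, Zfp42, Sall4 and Tcfcp2l1) had an H3K9ac peak at the TSS (65.0% of all TSSs), and 7 of them held at least 2 times the input (56.4% of TSSs). With 13HH3 5 of them had a peak (28.1% of TSSs) and 4 held at least 2 times input (16.3%), and with 7G8 5 (25.0%) and 3 (16.8%) did. A cell population was measured, so a mark in fewer cells and a lower level in every cell cannot be told apart.

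Promoter sequences were in the RefSeq table for 5 of the 10 genes, namely Foxa2, T, Eomes, Gsc and Cdx2. There was no entry for Gata4, Gata6, Sox17, Sox7 and Mixl1. The 3 shown are those of the gene with the highest H3K9ac ratio over input within 2 kb of the TSS (Eomes), the gene with the highest H3K14ac ratio with 13HH3 (Gsc) and the gene without an H3K9ac peak at its TSS (Foxa2). Each runs 5′ to 3′ on the strand of the gene, from 250 bases before the RefSeq start to 50 bases from it, was placed on mm9 by exact match, and has its CpGs in capitals. Eomes lies at chr9:118387057-118387356 on the plus strand, Gsc at chr12:105711397-105711696 on the minus strand and Foxa2 at chr2:147872656-147872955 on the minus strand.
Eomes: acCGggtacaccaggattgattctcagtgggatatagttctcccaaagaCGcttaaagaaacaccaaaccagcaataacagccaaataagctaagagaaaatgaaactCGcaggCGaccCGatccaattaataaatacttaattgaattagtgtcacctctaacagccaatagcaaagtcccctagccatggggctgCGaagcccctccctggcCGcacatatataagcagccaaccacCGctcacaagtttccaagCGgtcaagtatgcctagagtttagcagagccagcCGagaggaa
Gsc: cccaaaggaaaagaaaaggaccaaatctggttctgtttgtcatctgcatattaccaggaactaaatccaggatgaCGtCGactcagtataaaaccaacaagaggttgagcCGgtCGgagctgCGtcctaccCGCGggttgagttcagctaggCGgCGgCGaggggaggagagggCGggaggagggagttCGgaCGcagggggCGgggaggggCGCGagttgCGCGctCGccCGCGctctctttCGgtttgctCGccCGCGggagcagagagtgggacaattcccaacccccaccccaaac
Foxa2: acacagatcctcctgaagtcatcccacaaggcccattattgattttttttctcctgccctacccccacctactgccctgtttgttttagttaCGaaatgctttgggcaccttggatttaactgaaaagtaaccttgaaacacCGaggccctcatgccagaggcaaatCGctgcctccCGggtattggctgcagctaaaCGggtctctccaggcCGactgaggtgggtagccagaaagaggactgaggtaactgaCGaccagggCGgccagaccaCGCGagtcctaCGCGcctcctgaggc
The Eomes sequence holds 10 CpGs, that of Gsc 25 and that of Foxa2 12. The table has 2 other starts for Foxa2, further downstream, whose windows hold 23 and 13 CpGs, and the sequence shown is the one at the TSS used here. The 300 bases at Eomes thus held fewer CpGs than the median of 12 over all promoters, while the 4 kb around its TSS held 236, more than at 98.0% of all TSSs.

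Within 2 kb of the TSS H3K9ac was above input at all 10 genes, and H3K14ac was above it at fewer of them. The interval of the ratio over input lay above 1 at 10 of 10 genes for H3K9ac (64.9% of the 21888 TSSs with an input tag), at 6 of 10 for H3K14ac with 13HH3 (33.0% of TSSs) and at 4 of 10 with 7G8 (32.4% of TSSs). It lay below 1 at none of the 10 for H3K9ac or 13HH3 (7.33% and 4.82% of TSSs), and at 1, Mixl1, for 7G8 (5.21% of TSSs). With windows of 1 kb it lay above 1 at 9 genes for H3K9ac, all but Gata4 (65.5% of TSSs). In these windows it did so at 3 for 13HH3, namely Gata6, Sox7 and Gsc (33.3%), and at 1 for 7G8, Sox7 (31.1%). With scaling by background bins it lay above 1 at 10, 7 and 5 genes (72.4%, 43.8% and 36.6% of TSSs), Sox17 for 13HH3 and Gsc for 7G8 being added. In that setting it lay below 1 at 0 genes for each antibody (2%, 2.54% and 4.06% of TSSs). A ratio of at least 2 was found at 7 of 10 genes for H3K9ac (56.4% of TSSs), at 3 of 10 for 13HH3 (16.3% of TSSs) and at 0 of 10 for 7G8 (16.8% of TSSs). For H3K9ac it was found at 4 genes with windows of 5 kb (44% of TSSs), at 9 with windows of 1 kb (62.6%) and at 10 with scaling by background bins (66.6%). With the library's own flanks as the reference, its tags 5 to 10 kb either side of the TSS, it was found at 5 (47.4%). For 13HH3 the counts were 2 with windows of 5 kb (5.61% of TSSs) and 3 with windows of 1 kb (27.2%). Scaling by background bins gave 4 for 13HH3 (24.1%) and own flanks 2 (15.3%).

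The median log2 ratio over input of the 10 genes was 1.24 for H3K9ac, 0.61 for 13HH3 and 0.49 for 7G8. Over all TSSs the medians were 1.27, 0.34 and 0.34. The 10 genes therefore sat in the middle of the range for H3K9ac, each of them higher than 35.0% to 72.6% of TSSs. Scaling by background bins in place of total tags adds 0.49 to each H3K9ac log2 ratio, 0.19 to each 13HH3 ratio and 0.08 to each 7G8 ratio, at every gene alike.

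**Figure D1:**
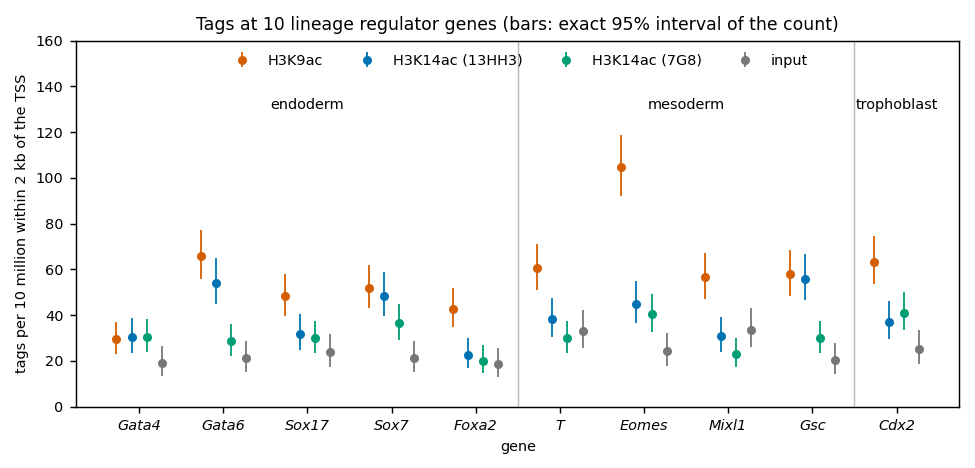
Normalised tags (per 10000000 tags of the library) within 2 kb of the TSS (vertical axis) for each of the 10 genes (horizontal axis, by lineage) in the 4 libraries, where points are the 1 library of each kind and bars are exact 95% intervals of the count. H3K9ac is highest at Eomes at 104.8, and 13HH3 lies close to H3K9ac at Gata4, Sox7 and Gsc.

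**Figure D2:**
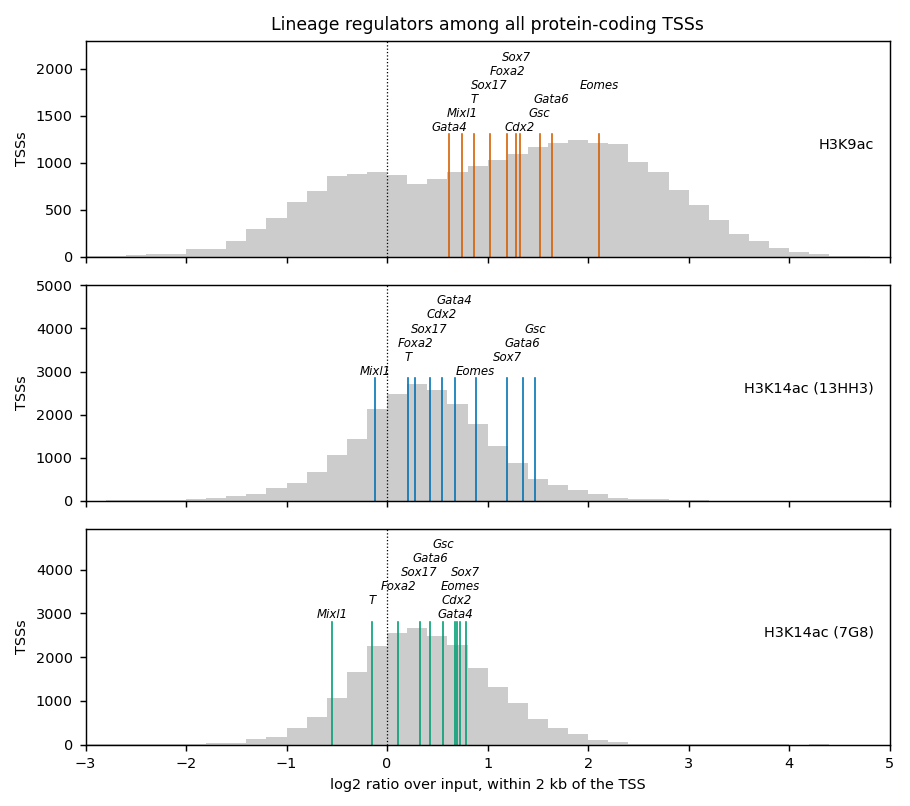
Histograms of the log2 ratio over input within 2 kb of the TSS (horizontal axis) over all protein-coding TSSs with an input tag (vertical axis, number of TSSs), with coloured lines at the 10 genes. The 10 genes run from 0.61 to 2.11 for H3K9ac, from -0.12 to 1.47 for 13HH3 and from -0.54 to 0.78 for 7G8, and up to 142 of 21888 TSSs a panel lie outside the plotted range.

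Gata4 and Gata6 encode zinc finger factors of primitive and definitive endoderm. Gata6 (ENSMUSG00000005836, chromosome 18, plus strand, 11052508 to 11085633) had 153 tags for H3K9ac, 117 for 13HH3, 68 for 7G8 and 41 for input, or 66.0, 54.1, 28.5 and 21.2 normalised tags. H3K9ac and 13HH3 were high and their intervals did not reach that of input, whereas that of 7G8 did. The log2 ratio over input was 1.64 for H3K9ac (interval 1.13 to 2.17), 1.35 for 13HH3 (0.83 to 1.90) and 0.43 for 7G8 (-0.15 to 1.02). Most of the 13HH3 tags lay downstream of the TSS, with 89 against 28 upstream, where input had 28 against 13. The highest bin of 500 bp began 2000 bp downstream with 41 tags for 13HH3, 36 for H3K9ac and 7 for input. With the library's own flanks as the reference the H3K9ac ratio was 0.85. A noncoding RNA gene, 1010001N08Rik, starts 57 bp from the Gata6 TSS on the opposite strand, so these tags cannot be assigned to either gene. H3K9ac peaks also lay 3882 bp and 7932 bp upstream and 6592 bp downstream, and the peak at 3882 bp upstream coincided with a 13HH3 peak. The peaks 7932 bp upstream and 6592 bp downstream lay in the flanks used as the reference.

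At Gata4 (ENSMUSG00000021944, chromosome 14, minus strand, 63817759 to 63890529) the start shared by most coding transcripts lies in the upstream part of the gene, and it held 68 tags for H3K9ac, 66 for 13HH3, 73 for 7G8 and 37 for input. The 3 antibodies were level there, at 29.3, 30.5 and 30.6 normalised tags. The interval of the H3K9ac log2 ratio ran from 0.02 to 1.23, and with windows of 1 kb it ran from -0.72 to 1.04, with 28 tags against 21 in input. The start of the CCDS transcript, the consensus coding annotation, lies 25876 bp further downstream and held 169, 97, 73 and 38 tags. H3K9ac was thus the highest of the 4 libraries at the CCDS start, with log2 ratios over input of 1.89 for H3K9ac (1.37 to 2.44), 1.19 for 13HH3 (0.63 to 1.77) and 0.64 for 7G8 (0.05 to 1.24), against 0.61, 0.67 and 0.68 at the upstream start. With this start Gata4 joined the genes at 2 times input or more, then 8 for H3K9ac and 4 for 13HH3. It lost its 7G8 peak within 2 kb, which left 2 genes in place of 3. The shares of all TSSs with CCDS starts were not computed. An H3K9ac peak of 1850 bp was centred 90 bp upstream of the CCDS start, with 127 tags against 30.0 scaled input tags.

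Sox17 and Sox7 encode SRY-related factors of endoderm and endothelium. Sox17 (ENSMUSG00000025902, chromosome 1, minus strand, 4481009 to 4486494) had 112 tags for H3K9ac, 69 for 13HH3, 71 for 7G8 and 46 for input, which gave log2 ratios of 1.02 (0.51 to 1.55), 0.42 (-0.14 to 0.99) and 0.32 (-0.23 to 0.89). H3K9ac had an interval above input, and those of 13HH3 and 7G8 included 0. With scaling by background bins the 13HH3 ratio was 0.61 (0.06 to 1.19). The largest H3K9ac region of Sox17 was not at the TSS: a peak of 2450 bp was centred 3818 bp downstream, over coding exon sequence (chromosome 1, 4481451 to 4483900), with 197 tags against 43.2 scaled input tags. All 5 bins from 2500 to 5000 bp downstream were at least 2 times input with an interval above it. No 13HH3 peak was called within 10 kb of the Sox17 TSS, and 1 peak of 7G8, of 500 bp, lay inside the H3K9ac peak.

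Sox7 (ENSMUSG00000063060, chromosome 14, plus strand, 64562511 to 64569569) had 120 tags for H3K9ac, 105 for 13HH3, 87 for 7G8 and 41 for input. All 3 antibodies had intervals above input, with log2 ratios of 1.29 (0.76 to 1.83), 1.19 (0.66 to 1.75) and 0.78 (0.23 to 1.35). The highest bin of H3K9ac and of 13HH3 was the 500 bp downstream of the TSS, with 40 and 31 tags against 8 in input. The highest bin of 7G8 lay upstream, from 1000 to 500 bp before the TSS, with 23 tags against 8.

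Foxa2 (ENSMUSG00000037025, chromosome 2, minus strand, 147868613 to 147872705) encodes a forkhead factor that opens chromatin in definitive endoderm. It had 99 tags for H3K9ac, 49 for 13HH3, 48 for 7G8 and 36 for input. H3K9ac was above input with a log2 ratio of 1.20 (0.63 to 1.79), and the intervals of 13HH3 (0.28, -0.37 to 0.94) and 7G8 (0.11, -0.54 to 0.78) included 0. In the 2 kb upstream of the TSS it had 40 H3K9ac tags against 20 in input, and 59 against 16 in the 2 kb downstream. With the library's own flanks as the reference the H3K9ac log2 ratio was 0.37, and those flanks hold the H3K9ac peak centred 7280 bp downstream. The H3K9ac peaks within 10 kb were centred 2680 bp downstream, in coding sequence, with 31 tags, and 7280 bp downstream, beyond the 3′ end of the gene, with 39 tags. The latter lies beside the start of 9030622O22Rik at 6766 bp. The former, at 147869751 to 147870300, lies outside the window of the TSS used, 147870706 to 147874705. It lies within 2 kb of the other RefSeq starts, at 147871684 and 147871200. That Foxa2 had no H3K9ac peak at its TSS thus depends on the start chosen.

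T, which encodes Brachyury, is switched on in the primitive streak. T (ENSMUSG00000062327, chromosome 17, plus strand, 8627288 to 8635361) had 140 tags for H3K9ac, 83 for 13HH3, 71 for 7G8 and 64 for input. Input was high here, with more tags than at 93.9% of TSSs. The log2 ratio was 0.87 for H3K9ac (0.43 to 1.32), 0.21 for 13HH3 (-0.28 to 0.71) and -0.15 for 7G8 (-0.66 to 0.36). With the library's own flanks as the reference they were 1.504 for H3K9ac and 0.77 for 13HH3. The tags of these antibodies were on the upstream side, with 90 against 50 for H3K9ac and 55 against 28 for 13HH3, while input had 20 upstream and 44 downstream. H3K9ac and 13HH3 both had their highest bin from 1000 to 500 bp before the TSS, with 37 and 24 tags against 6 in input.

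Eomes (ENSMUSG00000032446, chromosome 9, plus strand, 118387330 to 118395250) encodes a T-box factor of mesendoderm that also acts in trophoblast. It had 243 tags for H3K9ac, 97 for 13HH3, 96 for 7G8 and 47 for input, or 104.8, 44.9, 40.3 and 24.3 normalised tags. All 3 antibodies were above input, and H3K9ac was the highest of the 10 genes. The log2 ratios were 2.11 (1.65 to 2.59), 0.88 (0.37 to 1.42) and 0.73 (0.21 to 1.26). Its H3K9ac peak of 3950 bp was the widest near any of the 10 genes and was centred 4 bp upstream of the TSS, around the sequence printed above. With windows of 1 kb the H3K9ac ratio of Eomes, 2.20, was below the 2.54 of Gsc. In these windows the intervals of 13HH3 (0.66, -0.13 to 1.49) and 7G8 (0.56, -0.23 to 1.38) at Eomes included 0. With the library's own flanks as the reference the H3K9ac ratio was 1.55 against 1.92, and with windows of 5 kb it was 1.43. The longest unbroken run of bins at 2 times input or more, each with an interval above input, was 4000 bp, from 2000 bp before to 2000 bp after the TSS. A further H3K9ac peak of 2400 bp was centred 10920 bp downstream, beyond the end of the gene, with 126 tags against 28.8 scaled input tags.

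Mixl1 (ENSMUSG00000026497, chromosome 1, minus strand, 182623174 to 182627165) encodes a homeodomain factor of the primitive streak. It had 131 tags for H3K9ac, 67 for 13HH3, 55 for 7G8 and 65 for input. Input was the highest of the 10 genes, with more tags than at 94.4% of TSSs, and 13HH3 and 7G8 did not rise over it. The log2 ratio was 0.75 for H3K9ac (0.31 to 1.20), -0.12 for 13HH3 (-0.63 to 0.40) and -0.54 for 7G8 (-1.09 to -0.0042). With the scaling by background bins the 13HH3 ratio was 0.07. That of 7G8 was -0.47, still below input, but its interval (-1.01 to 0.07) included 0. The H3K9ac tags were concentrated in the 500 bp after the TSS, with 56 against 21 in input. That was the highest H3K9ac bin of all 10 genes, at 24.2 normalised tags.

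Gsc (ENSMUSG00000021095, chromosome 12, minus strand, 105709419 to 105711537) encodes a homeodomain repressor of the anterior streak and organizer. It had 134 tags for H3K9ac, 121 for 13HH3, 71 for 7G8 and 39 for input, or 57.8, 55.9, 29.8 and 20.2 normalised tags. H3K9ac and 13HH3 were level in this window, and their intervals lay above that of input. The log2 ratios were 1.52 (0.99 to 2.07), 1.47 (0.94 to 2.03) and 0.56 (-0.02 to 1.16). The 13HH3 ratio was the highest of the 10 genes and higher than at 94.5% of TSSs. With windows of 1 kb the H3K9ac log2 ratio was 2.54 and that of 13HH3 2.13, and 13HH3 over H3K9ac was -0.41 (-0.97 to 0.13). The marks formed 3 separate peaks in each of H3K9ac and 13HH3, upstream, at the TSS and at the 3′ end of the short gene. The upstream H3K9ac peak had 21 tags against 10.8 scaled input tags, a log2 ratio of 0.96 whose interval (-0.23 to 2.27) included 0. The upstream 13HH3 peak had a log2 ratio of 2.13 (1.07 to 3.35). Another protein-coding gene, Gm10000, starts 1161 bp upstream on the opposite strand, so the upstream peak lies in that gene's neighbourhood too.

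Cdx2 (ENSMUSG00000029646, chromosome 5, minus strand, 148112381 to 148118846) encodes a caudal-type homeodomain factor needed for trophectoderm. It had 147 tags for H3K9ac, 80 for 13HH3, 98 for 7G8 and 49 for input. All 3 antibodies had intervals above input in this window, that of 13HH3 narrowly. The log2 ratios were 1.32 (0.85 to 1.82), 0.54 (0.01 to 1.09) and 0.70 (0.19 to 1.22). With windows of 5 kb they were 0.52, -0.17 and 0.06, and with the library's own flanks as the reference that of H3K9ac was 0.61. The tags lay downstream, with 119 against 28 upstream for H3K9ac, 64 against 16 for 13HH3, 76 against 22 for 7G8 and 32 against 17 for input. The H3K9ac peak at the TSS was 1650 bp wide. Further H3K9ac peaks, centred 8130 bp upstream and 7520 bp downstream, lay in the flanks used as the reference.

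**Figure D3:**
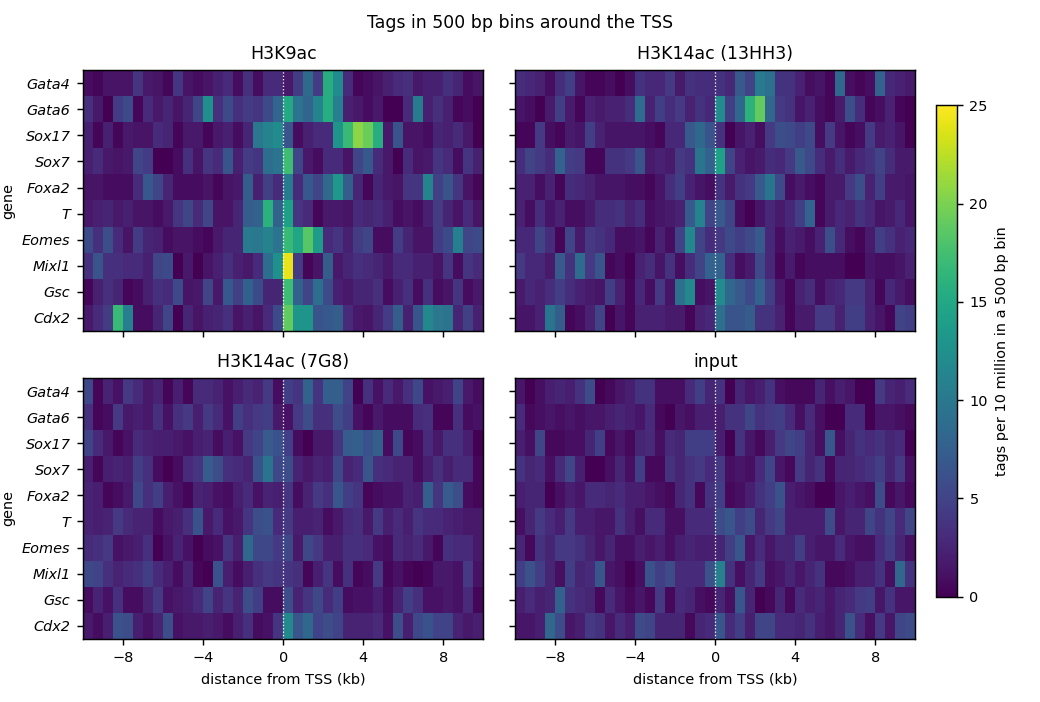
Normalised tags (per 10000000 tags of the library) in bins of 500 bp (colour) against distance from the TSS in kb (horizontal axis) for the 10 genes (rows) in each library, with the gene running to the right. The H3K9ac panel shows the region of Sox17 from 2.5 to 5 kb downstream and the bin at Mixl1, which reaches 24.2.

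Ranked by tags, neighbouring genes were mostly not separable. For H3K9ac 2 of the 9 neighbouring pairs differed beyond counting error, Eomes over Gata6 at the top and Foxa2 over Gata4 at the bottom, and 24 of all 45 pairs did. None of the 9 neighbouring pairs did for 13HH3 or for 7G8, and 22 and 15 of 45 pairs did. On the ratio over input 4, 5 and 4 of the 45 pairs had intervals that did not overlap for H3K9ac, 13HH3 and 7G8. That is a different rule from the one for tags. The tag intervals of Foxa2 (34.7 to 52.0 normalised tags) and Gata4 (22.8 to 37.2) do overlap, so the counts of pairs for tags and for ratios are not alike. The order of the genes in the middle of each range is therefore not resolved at this depth.

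Peaks were counted that reach within 10 kb of the TSSs, so the centre of a counted peak can lie further away, as at Eomes. H3K9ac had 25 such peaks at all 10 genes (72.3% of all TSSs have at least 1), 13HH3 had 12 peaks at 6 genes (45.1% of TSSs) and 7G8 had 7 peaks at 5 genes (36.4% of TSSs). Within 2 kb of the TSS a peak was found at 9 of 10 genes for H3K9ac (65.0% of all TSSs), at 6 of 10 for 13HH3 (28.1%) and at 3 of 10 for 7G8 (25.0%). At the stricter threshold of 1e-10 it was found at 8 genes for H3K9ac (56% of TSSs), at 2 for 13HH3 (8.37%) and at 0 for 7G8 (5.98%). The mean number of H3K9ac peaks within 10 kb was 2.5 for the 10 genes and 2.16 for all TSSs. For 13HH3 these means were 1.2 and 0.733, and for 7G8 0.7 and 0.576. Of the 12 peaks of 13HH3, 11 shared 1 bp or more with a peak of H3K9ac, and 11 of the 25 H3K9ac peaks were overlapped. The exception among the 12 was a 13HH3 peak in the Gata4 gene 6360 bp downstream of the upstream start, where 7G8 also had a peak. Over the genome, 47.3% of the 13HH3 peaks and 27.1% of the H3K9ac peaks overlapped in this way. These shares include peaks far from any TSS, and the shares for peaks within 10 kb of all TSSs were not computed.

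Peaks lay on the promoter side, in the genes and beyond them. Of the 25 H3K9ac peaks, 9 were centred upstream of the gene, 8 in coding exons, 4 in introns, 1 in an untranslated exon and 3 downstream of the gene. Their widths ran from 400 to 3950 bp, and those of 13HH3 from 400 to 1350 bp. Summed over the 10 genes the bin of 500 bp after the TSS held most H3K9ac tags, 330 against 87 in input, a log2 ratio of 1.66. The 13HH3 sum also had most tags in that bin, 168, a log2 ratio of 0.79 (0.40 to 1.18). From 2000 to 2500 bp it had 139 tags against 54 in input, a log2 ratio of 1.20 (0.74 to 1.68), so the intervals of the ratios overlapped. Of these 139 tags, 41 were at Gata6 and 22 at Gata4, against 4 at Sox7, 3 at T and 2 at Sox17. The intervals cover counting error of the sums and not the spread between genes.

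**Figure D4:**
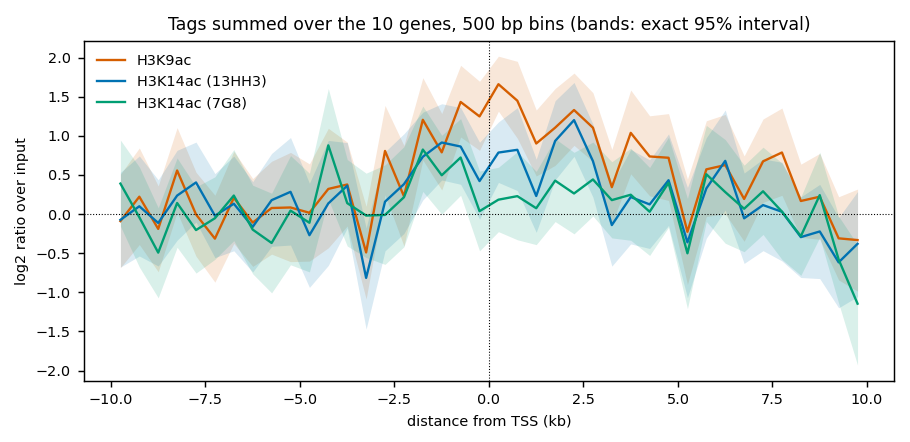
Log2 ratio over input of the tags summed over the 10 genes (vertical axis) in bins of 500 bp by distance from the TSS in kb (horizontal axis), with lines for the 3 antibodies and bands for the exact 95% interval of the 2 counts. H3K9ac reaches 1.66 in the bin after the TSS, and 13HH3 has 0.79 in the same bin and 1.20 from 2000 to 2500 bp downstream, with bands that overlap. The bands do not cover the spread between genes.

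Comparison of the marks at the same gene gave a gradient. The median log2 ratio of 13HH3 over H3K9ac was -0.63 for the 10 genes and -0.91 for all TSSs. Its interval was below 0 at 6 of 10 genes (61.6% of TSSs) and above 0 at 0 of 10 (5.38% of TSSs). With windows of 5 kb the lowest was Sox17, at -1.12 against -0.99 at Eomes. Within 2 kb it was Eomes at -1.22 (-1.58 to -0.88), with an interval that overlapped that of Foxa2 (-1.44 to -0.41). At Gata4, Gsc, Sox7 and Gata6 the intervals included 0, with ratios of 0.06, -0.05, -0.09 and -0.29. The call at Gata6 changed with windows of 1 kb, to -0.73 (-1.26 to -0.22), and with both marks scaled by background bins, to -0.58 (-0.94 to -0.23). At the other 3 genes the interval included 0 in both settings. With background bins it did so only narrowly at Sox7, at -0.39 (-0.78 to 0.0025), and at Gsc, at -0.34 (-0.71 to 0.02). Whether the marks are level at these genes thus depends on the scaling. With 7G8 in place of 13HH3 the interval lay below 0 at every gene but Gata4, where it included 0. The share of all TSSs for this ratio was not computed. The ratio was -0.96 at Gsc (-1.39 to -0.53), -0.50 at Sox7 (-0.92 to -0.09) and -1.21 at Gata6 (-1.64 to -0.79). At the CCDS start of Gata4 H3K9ac was above 13HH3 in normalised tags, at 72.9 against 44.9.

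The antibodies against H3K14ac differed at Gata6 and Gsc. The log2 ratio of 13HH3 over 7G8 was 0.92 at Gata6 (0.48 to 1.38) and 0.91 at Gsc (0.48 to 1.35), and at the other 8 genes its interval included 0. With both libraries scaled by background bins, a setting chosen after seeing the data, the interval lay above 0 at 5 of 10 genes, with Sox7, T and Mixl1 added (16.8% of TSSs). With scaling by total tags, 2 of 10 genes stand beside 10.9% of all TSSs with an interval above 0. The value at Gata6 was higher than at 98.1% of TSSs and that at Gsc higher than at 97.9%. At Gata6 13HH3 had 117 tags and 7G8 68, and at Gsc 121 and 71, although the 7G8 library is the larger.

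CpG content, which the choice of genes did not use, was high at most of them. The 4 kb around the TSS held a median of 173.5 CpGs, against a median of 84 for all TSSs. Of the 10 genes 9 were above 84, all but Gata4 at its upstream start with 78. The next lowest were Sox17 with 95, more than at 56.5% of TSSs, and Mixl1 with 132, more than at 77.1%. Gsc held most, 269. The medians of the other lists were 140 for the other lineage regulators, 167 for the pluripotency regulators and 177.5 for the neural bHLH regulators. Across the 10 genes the H3K9ac ratio rose with the number of CpGs, with a Spearman rho of 0.85, and of 0.80 without Gata4. Over the 21888 TSSs rho was 0.69. The points share the 4 libraries and their input, and the relation is a description. For 13HH3 rho was 0.52 across the 10 genes and 0.48 over all TSSs, and for 7G8 it was 0.19 and 0.33. Input tags had a rho of -0.09 with the H3K9ac ratio and -0.49 with the 13HH3 ratio across the 10 genes.

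In the 300 bases of the promoter at the annotated TSS, TATAAA on either strand was found at 1 of the 10 genes, Gsc, and at 13.5% of all promoters. GCGC, which reads the same on both strands, was found at 7 of 10 and at 55.5% of all promoters. In the Gsc sequence printed above TATAAA begins 164 bases before the RefSeq start. TATAAA was also found, on the opposite strand, in the window of the Foxa2 start 1505 bp downstream of the annotated TSS.

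Other regulators of the same lineages were measured in the same way. Of 45 such genes, 27 held at least 2 times input for H3K9ac (56.4% of TSSs), 6 for 13HH3 (16.3%) and 3 for 7G8 (16.8%). Their median log2 ratios were 1.09, 0.63 and 0.34. By role, H3K9ac was at least 2 times input at 6 of 12 endoderm, 16 of 20 mesoderm and 5 of 13 trophoblast genes, beside the same 56.4% of TSSs. The highest H3K9ac ratios were at Otx2, a homeodomain factor of anterior endoderm and epiblast, at 2.99, at Id2, an inhibitor of bHLH factors in trophoblast, at 2.74, and at Foxa3, a forkhead factor of endoderm, at 2.52. The lowest was at Elf5, an ETS factor of trophoblast stem cells, with 77 tags against 69 in input and a log2 ratio of -0.11.

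Core pluripotency regulators, whose expression was likewise not checked, had a higher median for H3K9ac. Of 12, 11 were at least 2 times input for H3K9ac (56.4% of TSSs) and 6 for 13HH3 (16.3%), with median log2 ratios of 2.32 and 0.98. Zfp42, a zinc finger marker of ES cells, was highest at 4.09, followed by Sox2 at 3.47 and Klf2 at 2.77, and Esrrb was lowest at 0.76. Pou5f1 had 412 tags and a log2 ratio of 2.49, and Nanog had 307 tags and a log2 ratio of 1.95. Eomes, at 243 tags and 2.11 (1.65 to 2.59), was not separable from Nanog (1.57 to 2.36) in ratio, and input had 66 tags at Nanog against 47. Neural bHLH regulators, which are likewise lineage genes, had median log2 ratios of 0.98 for H3K9ac and 0.35 for 13HH3. Of these 14 genes, 7 and 2 were at least 2 times input (56.4% and 16.3% of TSSs). Among them the H3K9ac log2 ratio was 1.49 at Bhlhe22 and 1.37 at Atoh1, and it was lowest at Neurod6, at -0.75. The median log2 ratio of 13HH3 over H3K9ac was -1.38 for the pluripotency regulators, -0.66 for the other lineage regulators and -0.34 for the neural genes, beside -0.63 for the 10 genes.

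**Figure D5:**
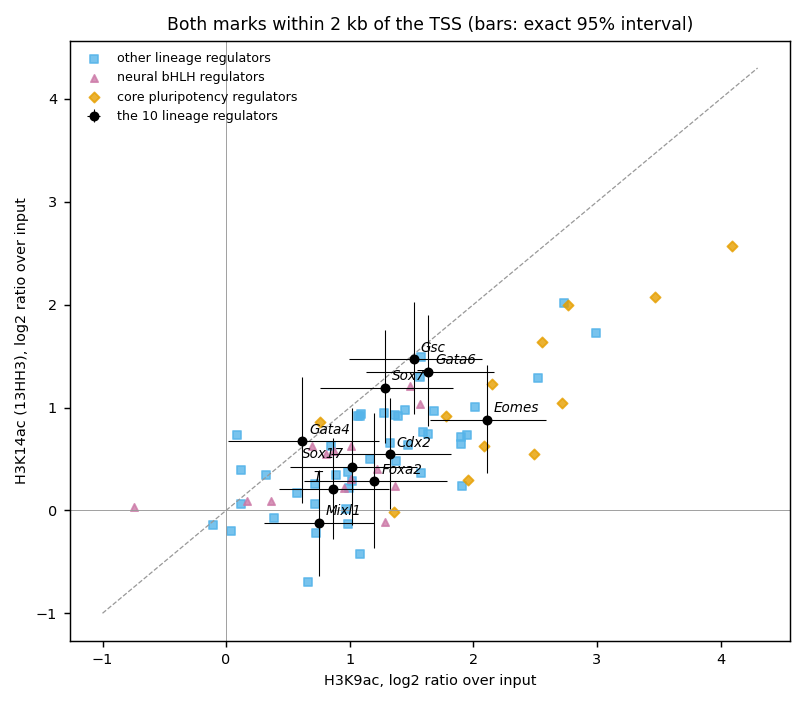
Log2 ratio over input of H3K14ac with 13HH3 (vertical axis) against that of H3K9ac (horizontal axis) within 2 kb of the TSS, where black points are the 10 genes with exact 95% intervals, coloured points are the genes of the other lists, and the dashed line marks equal ratios. Gsc, Sox7 and Gata4 lie near the dashed line, and the pluripotency regulators reach 4.09 for H3K9ac.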

How the data were processed

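Reads of 36 bases (single end) had been mapped to mm9 by the authors with ELAND at up to 1 mismatch, and the deposited files list mapped reads with their position and strand, without normalization. The 10 genes and the lists were chosen with earlier results of these data known. In the 13HH3 file 738711 tags repeated a position and strand (3.30%), and 1 tag was kept. The H3K9ac, 7G8 and input files held 0 repeated tags, so they may not list every mapped read. Tags were shifted by 100 bp from their 5′ end. The TSS was the start shared by most coding transcripts of a gene, and the CCDS start was added after this rule placed Gata4 upstream. Ratios were scaled by total tags, with exact binomial intervals from the 2 counts, and tags had exact Poisson intervals. The ratio intervals were tested only on counts simulated from the Poisson model that they assume. The peak calls were tested on sites simulated in an even background, so uneven input was not covered. The Poisson intervals of the tags were not tested. Peaks were joined windows of 400 bp above a Poisson rate at 1e-05, the rate being the highest of the mean and the scaled input in 1, 5 and 10 kb, since MACS was not run. All 10 genes are named. Of each other list the 3 highest and the lowest by H3K9ac ratio are named, with Pou5f1, Nanog and Sox2, and genes that start within 10 kb, except 1 gene that is not reported here. Alternatives concerned windows, TSSs, scaling, repeated tags, tag shift, reference, fold and peak threshold. Calculations used scipy 1.17.1 with numpy 2.4.6 and pandas 2.3.3 under Python 3.11.15, and plots matplotlib 3.10.9.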

Additional observations from a re-analysis of the deposited data

How the results depend on the processing

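No paired analysis was possible because each antibody has 1 library. The median log2 ratios of the 10 genes kept their direction under every alternative run. For H3K9ac the medians ran from 0.86 with windows of 5 kb to 1.73 with input scaled by background bins. With windows of 5 kb 4 genes were at 2 times input or more for H3K9ac, in place of 7 (44% of TSSs), and the log2 ratio of 13HH3 at Cdx2 turned to -0.17. At a ratio of 1.5 in place of 2 the counts were 10 for H3K9ac, 5 for 13HH3 and 4 for 7G8 (65.2%, 35.7% and 35.9% of TSSs), and with the library's own flanks as the reference 7G8 had 2 (18.5%). Peaks at 1e-10 were found at 8, 2 and 0 genes for H3K9ac, 13HH3 and 7G8, and peaks called without input at 10, 9 and 7 (70.6%, 49% and 50.6% of TSSs). The causes were not tested, beyond the change of the threshold itself. Of the values of single genes, windows of 1 kb moved 4 of 40 outside the interval of the value reported (1 of them, 13HH3 over H3K9ac at Gsc, at its edge), windows of 5 kb 4 of 40 (H3K9ac and 7G8 at Cdx2, H3K9ac at Eomes and 13HH3 over H3K9ac at Sox17) beside the reversed value at Cdx2, the CCDS start, which like the scaling of both marks was chosen after seeing the data, 2 of 40, own flanks 7 of 30 and 7G8 in place of 13HH3 over H3K9ac 3 of 10 (Gsc, Sox7 and Gata6). Scaling by background bins adds a constant and was not counted. The start of the gene record, repeated tags, unshifted tags and bins of 1000 bp moved 0. Depth limits the separation of genes, since 36 to 243 tags stand behind each value, and variation between libraries was not measured.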
